A study of Mus musculus with 6 samples.

Results

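The genes described here encode the machinery that releases transmitter from presynaptic vesicles: 32 genes for SNARE proteins, calcium sensors, vesicle membrane proteins, active zone and priming proteins, vesicular glutamate transporters and neurexins. They were chosen by name and found through their Ensembl identifiers, and all 32 were present among the 54532 genes of the deposited table. Each of the 32 passed the filter on low values used for testing. RNA came from dorsal root ganglia, which hold the cell bodies of the sensory neurons, of C57BL/6 mice aged 8 weeks, and was sequenced in 6 libraries. In 3 of these (Hdac2 cKO, genotype Adv-Cre+/hdac2-flop++) floxed Hdac2 alleles were combined with Cre recombinase driven by Advillin, a gene of primary sensory neurons. The other 3 (WT, genotype hdac2-flop++) came from littermates that carried the floxed alleles too, but no Cre. No group carried Cre without floxed Hdac2, so an effect of Cre itself and one of the deletion cannot be told apart. The driver limits the deletion to cells in which Advillin is or was active; glia, vessels and blood of the ganglion contribute RNA too.

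Transmitter is released when a vesicle fuses with the plasma membrane of the nerve terminal. SNARE proteins of vesicle and membrane zip together to drive the fusion, calcium sensors of the synaptotagmin family trigger it, and active zone proteins hold primed vesicles beside calcium channels. Sensory neurons of the ganglion make these transcripts in their cell bodies and ship the proteins to terminals in the spinal cord, where most of them release glutamate. HDAC2, a histone deacetylase, works in repressor complexes, among them those recruited by REST, a factor that holds many neuronal genes silent in other cells. Calcium channel and NMDA receptor genes were the ones the study asked about, and the release genes are read here beside that question.

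Promoters of members are shown here because such complexes can act there. RefSeq windows (GRCm38.p6, the assembly of mm10; 250 bases before to 50 after the start site, the first listed for each gene) were found for 23 members. All windows are printed 5′ to 3′ on the strand of the gene; RefSeq start sites can differ from the GENCODE gene starts given further on. The first 4 belong to the related genes whose ratios are described further on: the glutamate transporters Slc17a6 and Slc17a7, and the calcium sensors Syt1 and Syt2. Capitals mark matches to the GC box, GGGCGG on either strand, the site of Sp1-family factors.
Slc17a6 chr7:51621580-51621879: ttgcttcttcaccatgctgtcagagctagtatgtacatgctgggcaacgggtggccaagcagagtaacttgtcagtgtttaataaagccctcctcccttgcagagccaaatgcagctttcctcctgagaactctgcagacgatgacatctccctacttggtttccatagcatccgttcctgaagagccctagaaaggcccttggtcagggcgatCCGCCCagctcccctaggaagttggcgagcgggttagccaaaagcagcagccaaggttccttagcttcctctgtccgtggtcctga
Slc17a7 chr7:45163671-45163970: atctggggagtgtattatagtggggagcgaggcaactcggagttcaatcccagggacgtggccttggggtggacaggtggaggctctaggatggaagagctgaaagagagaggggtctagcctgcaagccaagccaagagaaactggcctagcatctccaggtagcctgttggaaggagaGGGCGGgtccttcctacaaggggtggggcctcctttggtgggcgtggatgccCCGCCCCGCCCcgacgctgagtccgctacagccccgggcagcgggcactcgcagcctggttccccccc
Syt1 chr10:109010926-109011225: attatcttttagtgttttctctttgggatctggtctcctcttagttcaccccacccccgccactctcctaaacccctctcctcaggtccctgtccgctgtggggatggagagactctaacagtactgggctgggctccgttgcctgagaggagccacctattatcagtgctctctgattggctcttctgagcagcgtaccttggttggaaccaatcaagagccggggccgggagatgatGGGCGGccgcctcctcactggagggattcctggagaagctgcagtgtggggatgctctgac
Syt2 chr1:134646362-134646661: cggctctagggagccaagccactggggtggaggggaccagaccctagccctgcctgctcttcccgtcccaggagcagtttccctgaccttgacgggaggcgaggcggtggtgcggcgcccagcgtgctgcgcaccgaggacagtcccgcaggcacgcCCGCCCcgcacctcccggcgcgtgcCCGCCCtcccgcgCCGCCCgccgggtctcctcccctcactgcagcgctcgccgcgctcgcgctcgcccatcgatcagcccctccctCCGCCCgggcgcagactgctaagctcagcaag
Slc17a6 and Syt1 held 1 GC box each, Slc17a7 held 3, of which 2 overlapped by 1 base, and Syt2 held 4. The windows of Slc17a6 and Syt1 held 8 CG dinucleotides each, that of Slc17a7 held 13 and that of Syt2 held 34. Among the 23 members 19 windows held a GC box (82.6%), against 35.9% of 27025 windows of all genes. CG dinucleotides had a median of 19 a window in members (2 to 49) and 7 in all genes.

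REST binds an element called RE1, which was searched for on both strands as a left arm, TTCAGCACC, and a right arm, GGACAGNGC. Of the 23 windows, 2 held the left arm (Syn1 and Unc13a), against 0.359% of all windows. The right arm was in 2 (Sv2b and Unc13a), against 1.88%. Syn1, which encodes synapsin I, and Unc13a, which encodes the priming protein Munc13-1, are shown because they held the left arm. Capitals mark the arms and, in Syn1, also the cAMP response element TGACGTCA (1.88% of all windows), a site of CREB-family factors.
Syn1 chrX:20920869-20921168: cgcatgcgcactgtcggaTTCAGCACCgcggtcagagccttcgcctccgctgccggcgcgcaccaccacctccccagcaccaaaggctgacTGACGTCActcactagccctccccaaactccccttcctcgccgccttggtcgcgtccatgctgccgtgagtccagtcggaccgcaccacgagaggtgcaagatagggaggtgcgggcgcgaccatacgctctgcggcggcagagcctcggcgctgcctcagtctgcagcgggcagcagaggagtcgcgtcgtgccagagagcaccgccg
Unc13a chr8:71671708-71672007: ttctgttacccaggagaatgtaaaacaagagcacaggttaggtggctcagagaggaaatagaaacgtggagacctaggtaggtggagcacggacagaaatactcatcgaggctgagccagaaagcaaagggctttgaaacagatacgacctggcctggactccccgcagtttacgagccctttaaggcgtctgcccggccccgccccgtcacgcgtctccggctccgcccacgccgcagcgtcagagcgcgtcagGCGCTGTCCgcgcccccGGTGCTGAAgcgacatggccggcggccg
In Unc13a both arms lay on the opposite strand, between bases 6 and 31 counted from the start site, with 8 bases between them. The whole element, with 2 bases between the arms, was found in no member window and in 1 of the 27025. At that gap the Syn1 window differed from the right arm in 1 of its 8 fixed letters, a near match looked for after the windows were seen; 5 of the 27025 windows (0.0185%) held the left arm with a right arm within 1 letter. In Unc13a 4 of the 8 letters differed at that gap. In Syn1 the left arm lay 232 to 224 bases before the start site. A TATAAA sequence was found in 1 member window, that of Sv2b, against 14.2% of all windows. These matches describe letters only and say nothing of binding in these cells.

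Levels are normalised read counts (called normalised counts below): the reads of a gene divided by 1 size factor per library. Reads assigned to genes totalled 18943595 to 42070531 per library, and 31 members had reads in every library. Differences are log2 fold changes of Hdac2 cKO against WT, taken on log2 of the value plus 1 and tested with limma over 18410 genes. Hdac2 itself stood at 2816, 1715 and 3498 across WT 1 to 3 against 499.1, 371.5 and 535.0 across Hdac2 cKO 1 to 3, and its log2 fold change was -2.47. Limma did not call even this gene (adjusted p = 0.927), while DESeq2 did (adjusted p = 1.72e-08). WT 3 stood apart from the other libraries: it was the lowest library for 40.7% of all genes tested and the highest for 30.5%. Among the 32 members it was the lowest for 18 (56.2%) and the highest for 5 (15.6%). Its values are therefore set apart below, and differences are given with and without it. WT 2 differed in another way: among genes with 1 to 20 reads, 42.4% of its counts were even, against 60.2 to 64.4% in the other libraries. The part of this in the values was not tested. Y-linked reads were found in WT 2, WT 3 and Hdac2 cKO 2, so males and females were in each group.

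No member passed limma's test (0 of 32), and neither did any gene of the 18410 (0%). Adjusted p for the members ran from 0.927 to 0.998, and no member had an unadjusted p under 0.05, which 341 genes did (1.85%). With the replicate block, which compares libraries of the same number, 4 members (Bsn, Rims2, Sv2c and Slc17a6; 12.5%) had an unadjusted p under 0.05, against 5.94% of all genes, and their adjusted p was 0.674. No label pairs the libraries, and this pairing was taken from correlations in the same data, so these p-values are a description only. By edgeR and by DESeq2 no member passed either, with smallest adjusted p of 0.978 and 0.992. DESeq2 called 28 genes (0.152%). Log2 fold changes were above 0 for 24 members (75.0%), against 55.3% of all genes tested, and their median was 0.20, against 0.06 over all genes. Without WT 3 the values were 20 members (62.5%) against 48.3% of the genes then tested, and a median of 0.08 against -0.012. Groups did not overlap for 7 members and for 8.54% of all genes. Of the 7, 6 (18.8%) were higher in every Hdac2 cKO library, against 4.63% of all genes, and 1 (3.12%) was lower, against 3.91%. Without WT 3, the count was 7 higher (21.9%, against 9.22%) and 2 lower (6.25%, against 9.63%), Syt4 and Slc17a7 being added. Confidence intervals (95%) held 0 for all 32. For 18 members the interval lay within a 2-fold change in either direction, and for the other 14 it reached past that. In whole ganglia, fewer cells of a type and less RNA per cell cannot be told apart.

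**Figure D1:**
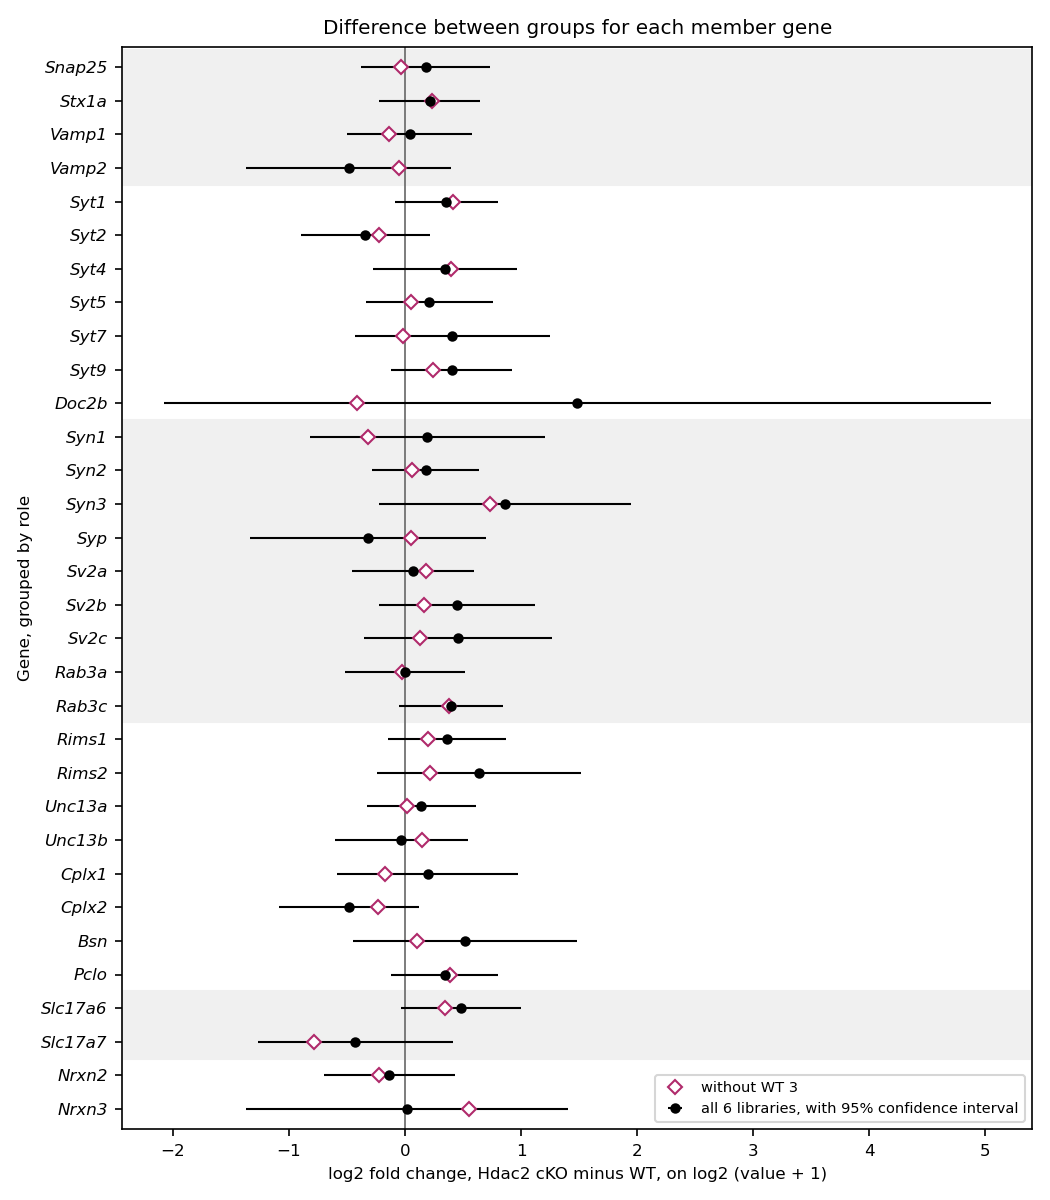
Log2 fold change of each member (Hdac2 cKO minus WT, horizontal axis) by gene (vertical axis, grouped by role in shaded bands), with limma's 95% confidence interval from all 6 libraries (black) and the value without WT 3 (open diamonds). Every interval crosses 0; the widest is that of Doc2b, which was at 0 in WT 3.

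Per kilobase of exon, levels spanned more than 3 orders of magnitude. Complexin 1 (Cplx1), a small protein that clamps and then assists SNARE assembly, was the most abundant member. In normalised read counts per kilobase it stood at 11171 ± 4636 in WT against 11991 ± 796 in Hdac2 cKO (SD, n = 3 each). Next came the vesicle GTPase gene Rab3a at 5498 ± 964 in WT against 5479.9 ± 881 in Hdac2 cKO, and then Snap25 at 4894 ± 1180.0 in WT against 5427 ± 319 in Hdac2 cKO. Vamp2 stood at 5689 ± 3266 in WT against 3674 ± 269 in Hdac2 cKO. The spread between libraries covered the distance between Rab3a and Snap25 in both groups, so their order is not resolved. Vamp2 overlapped them in WT, where WT 3 was high, and lay below both in Hdac2 cKO. At the other end, Syn3 (5.72 ± 1.95 in WT against 10.8 ± 4.86 in Hdac2 cKO) and the calcium sensor gene Doc2b (7.98 ± 7.55 in WT against 8.73 ± 1.53 in Hdac2 cKO) were lowest. Syn3, a synapsin, shares 14.1% of its exonic bases with Timp3, a far more abundant gene on the opposite strand, so its reads are uncertain. Exons of 14 members overlapped another annotated gene, and the strand setting of the counting was not found in the sources used here. Reads from the shared bases therefore cannot be told apart. A single overlapping gene shared from 0.27% (Araf with Syn1) to 16.8% (Gm14703 with Syp) of a member's exonic bases. Timp3 was the only overlapping gene with a higher mean level than its member.

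**Figure D2:**
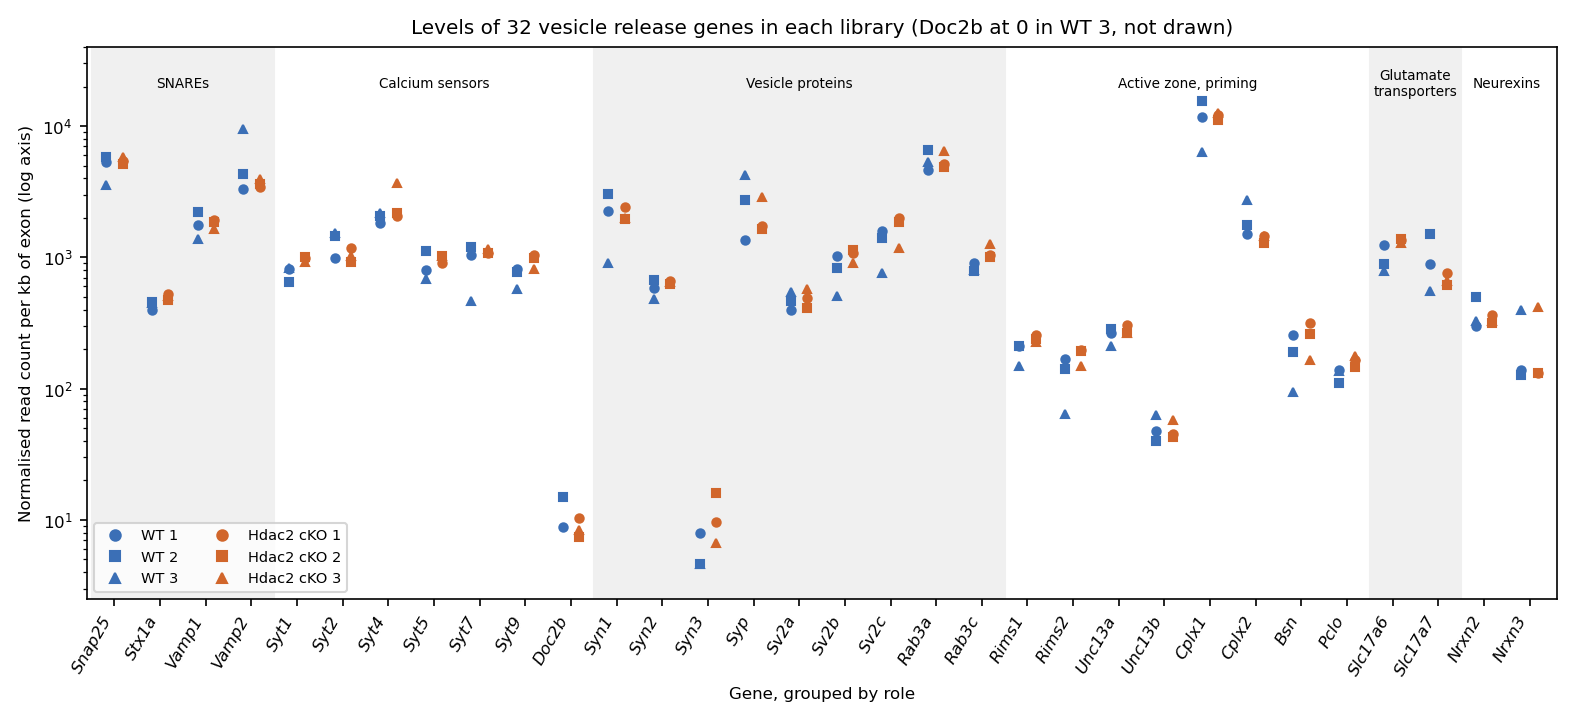
Normalised read count per kilobase of exon (log axis) of each member (horizontal axis, grouped by role) in the 3 WT (blue) and 3 Hdac2 cKO libraries (orange), with the marker shape giving the library number. Cplx1 is highest in both groups and Syn3 and Doc2b lowest; most WT points that lie away from their group are triangles, that is, WT 3.

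Of the 4 SNARE genes, 1 did not overlap between groups, being higher in Hdac2 cKO (25.0%, against 4.63% of all genes), and none passed. Stx1a (ENSMUSG00000007207, mm10 chromosome 5, 135023482 to 135051100) encodes syntaxin 1A of the plasma membrane. It stood at 1065, 1225 and 1198 normalised counts across WT 1 to 3 against 1410.5, 1268 and 1362 across Hdac2 cKO 1 to 3. All Hdac2 cKO values lay above all WT values, by a log2 fold change of 0.21 (SE 0.19) with an interval from -0.22 to 0.65, and of 0.24 without WT 3. Snap25 (ENSMUSG00000027273, mm10 chromosome 2, 136713453 to 136782428), its partner on the same membrane, stood at 36195, 39345 and 24161 normalised counts across WT 1 to 3 against 36560.4, 34849.9 and 39152 across Hdac2 cKO 1 to 3. The 5 libraries other than WT 3 thus lay between 34850 and 39345, and the log2 fold change of 0.18 (SE 0.24) became -0.036 without WT 3. The vesicle SNARE gene Vamp2 stood at 12636, 16513 and 35857 normalised counts across WT 1 to 3 against 13024, 13888 and 15069 across Hdac2 cKO 1 to 3. WT 3 was more than 2-fold above every other library, and the log2 fold change of -0.49 (SE 0.38) was -0.048 without it. Vamp1, which encodes the related vesicle SNARE of fast synapses and motor terminals, was low in WT 3 instead, at 18036, 22606 and 13963 normalised counts across WT 1 to 3 against 19404, 19054 and 16747 across Hdac2 cKO 1 to 3. Its log2 fold change was 0.040 (SE 0.23), or -0.14 without WT 3.

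Among the 7 genes listed as calcium sensors, which were grouped by family, Syt1 alone did not overlap between groups. It was higher in Hdac2 cKO (14.3%, against 4.63% of all genes). Syt1 (ENSMUSG00000035864, mm10 chromosome 10, 108497650 to 109010982) encodes synaptotagmin 1, a fast sensor on synaptic vesicles. It stood at 6746, 5432 and 6872 normalised counts across WT 1 to 3 against 8289, 8379.8 and 7621 across Hdac2 cKO 1 to 3, with means of 6350.0 ± 798 across WT against 8096 ± 415 across Hdac2 cKO (SD, n = 3 per group). Its log2 fold change was 0.36 (SE 0.19), with an interval from -0.085 to 0.80, and 0.42 without WT 3. Syt2 (ENSMUSG00000026452, mm10 chromosome 1, 134646677 to 134762593), the related fast sensor of synapses that fire at high rates, stood at 7610.4, 11187 and 11734 normalised counts across WT 1 to 3 against 9062, 7008 and 7750.1 across Hdac2 cKO 1 to 3. WT 1 lay below Hdac2 cKO 1 and 3, so the groups overlapped, and the log2 fold change was -0.34 (SE 0.24), or -0.22 without WT 3. Syt9, also a fast sensor, differed by 0.40 (SE 0.22) on the log2 scale, and by 0.24 without WT 3. Its values were 3243, 3096 and 2272 across WT 1 to 3 against 4126, 3962 and 3221 across Hdac2 cKO 1 to 3, where Hdac2 cKO 3 lay just below WT 1.

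Per kilobase, the most abundant of the genes listed as calcium sensors was Syt4, a synaptotagmin of dense-core vesicles. It stood at 7108, 7994 and 8449 normalised counts across WT 1 to 3 against 8033, 8496 and 14400.0 across Hdac2 cKO 1 to 3. Hdac2 cKO 3 was far above the rest, and without that library the log2 fold change of 0.34 (SE 0.27) was 0.08. Syt7, the slow and high-affinity sensor, stood at 7742, 9013 and 3467 normalised counts across WT 1 to 3 against 8062, 8145 and 8609.6 across Hdac2 cKO 1 to 3. WT 3 lay more than 2-fold below every other library, and the log2 fold change of 0.41 (SE 0.36) became -0.015 without it. Syt5 had a log2 fold change of 0.21 (SE 0.23), or 0.054 without WT 3. Doc2b, a sensor of spontaneous and delayed release, had 44, 44 and 0 reads across WT 1 to 3 against 45, 33 and 52 across Hdac2 cKO 1 to 3. The 0 in WT 3 allows a level of up to 3.07 normalised read counts, for counting error only and with reads taken as independent. Of the counts of 1 to 20 in WT 3, 60.2% were even, and what this does to the limit was not tested. The log2 fold change of Doc2b was 1.48 (SE 1.52) and turned to -0.41 without WT 3.

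Of 9 vesicle membrane genes, 7 had log2 fold changes above 0 (77.8%, against 55.3% of all genes tested). Rab3c alone did not overlap, being higher in Hdac2 cKO (11.1%, against 4.63% of all genes). Rab3 GTPases sit on docked vesicles and bind RIM proteins. Rab3c (ENSMUSG00000021700, mm10 chromosome 13, 110054187 to 110280996) stood at 10818, 9519 and 9693 normalised counts across WT 1 to 3 against 12443, 12075 and 15202 across Hdac2 cKO 1 to 3. Every Hdac2 cKO library lay above every WT library, with a log2 fold change of 0.40 (SE 0.19), an interval from -0.047 to 0.84, and 0.38 without WT 3. Rab3a (ENSMUSG00000031840, mm10 chromosome 8, 70754679 to 70758677) showed no such separation, at 10368, 14582 and 11767 normalised counts across WT 1 to 3 against 11368, 10788 and 14438 across Hdac2 cKO 1 to 3, with a log2 fold change of -0.0022 (SE 0.22) and an interval from -0.52 to 0.51.

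Synapsins tether vesicles in a reserve pool. Syn1, whose promoter is printed above, stood at 7452, 10092 and 2983 normalised counts across WT 1 to 3 against 7918, 6427 and 6607 across Hdac2 cKO 1 to 3. The lowest value by far was that of WT 3, and the log2 fold change of 0.19 (SE 0.43) became -0.32 without it. Syn2 averaged 4060.2 ± 645 across WT against 4557 ± 124 across Hdac2 cKO (SD, n = 3 per group), a log2 fold change of 0.18 (SE 0.20), and that of Syn3 was 0.87 (SE 0.46). Synaptophysin (Syp), a major protein of the vesicle membrane, varied widely, at 7122, 14302 and 21968 normalised counts across WT 1 to 3 against 9048, 8547 and 14927 across Hdac2 cKO 1 to 3. Both libraries numbered 3 and WT 2 were high, and the log2 fold change was -0.32 (SE 0.43), or 0.056 without WT 3.

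The SV2 glycoproteins are vesicle proteins that botulinum neurotoxins use to enter terminals. Sv2c was the most abundant of them, at 15439, 13584 and 7353 normalised counts across WT 1 to 3 against 19389.6, 17949 and 11443 across Hdac2 cKO 1 to 3. Both libraries numbered 3 were the lowest of their groups, and for each of the 3 replicate numbers the level was higher in Hdac2 cKO than in the WT library of that number. The log2 fold change of 0.46 (SE 0.34) was 0.13 without WT 3, and 0.37 without both libraries numbered 3. Sv2b averaged 6629 ± 2194 across WT against 8732 ± 1031 across Hdac2 cKO (SD, n = 3 per group), a log2 fold change of 0.45 (SE 0.29), or 0.16 without WT 3. Sv2a, the target of the drug levetiracetam, averaged 2175 ± 347 across WT against 2286 ± 384 across Hdac2 cKO (SD, n = 3 per group), a log2 fold change of 0.070 (SE 0.22).

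Of 8 active zone and priming genes, 3 did not overlap between groups, in both directions. Higher in Hdac2 cKO were 2 (25.0%, against 4.63% of all genes), and 1 was lower (12.5%, against 3.91%). Rims1 (ENSMUSG00000041670, mm10 chromosome 1, 22286251 to 22805994) encodes RIM1, which ties vesicles to calcium channels. It stood at 1549, 1546 and 1096 normalised counts across WT 1 to 3 against 1894, 1754 and 1676 across Hdac2 cKO 1 to 3, with a log2 fold change of 0.36 (SE 0.22), an interval from -0.14 to 0.87, and 0.20 without WT 3. Piccolo (Pclo; ENSMUSG00000061601, mm10 chromosome 5, 14514918 to 14863459), a giant scaffold protein, was also higher in each Hdac2 cKO library, at 3109, 2473 and 3056 normalised counts across WT 1 to 3 against 3699, 3258 and 3969.8 across Hdac2 cKO 1 to 3. Its log2 fold change was 0.34 (SE 0.20), with an interval from -0.12 to 0.80, and 0.39 without WT 3. Complexin 2 (Cplx2; ENSMUSG00000025867, mm10 chromosome 13, 54371349 to 54383917) was lower in each Hdac2 cKO library, at 7463, 8748 and 13484 normalised counts across WT 1 to 3 against 7173, 6347 and 7106 across Hdac2 cKO 1 to 3. Its log2 fold change of -0.48 (SE 0.26) had an interval from -1.08 to 0.12 and was -0.24 without WT 3, the highest library.

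The other complexin gene overlapped between groups. Cplx1 stood at 25492, 34043 and 13827 normalised counts across WT 1 to 3 against 26657, 24337 and 27750.2 across Hdac2 cKO 1 to 3, with WT 3 the lowest, and its log2 fold change of 0.20 (SE 0.33) became -0.17 without it. Rims2 stood at 1734, 1465 and 661 normalised counts across WT 1 to 3 against 2052, 2003 and 1533 across Hdac2 cKO 1 to 3. WT 3 lay more than 2-fold below each other library, and the log2 fold change of 0.64 (SE 0.38) was 0.21 without it and 0.35 without both libraries numbered 3. Bassoon (Bsn), the scaffold related to piccolo, ran from 1503 in WT 3 to 5017 in Hdac2 cKO 1, and its log2 fold change was 0.52 (SE 0.41), or 0.11 without WT 3 and 0.37 without both libraries numbered 3. The priming gene Unc13a, whose window held both RE1 arms, stood at 3326, 3596 and 2681 normalised counts across WT 1 to 3 against 3865, 3321 and 3362 across Hdac2 cKO 1 to 3. Its groups overlapped and its log2 fold change was 0.14 (SE 0.20), with an interval from -0.33 to 0.61, and 0.020 without WT 3. Unc13b, the related Munc13-2 gene, averaged 1139.5 ± 263 across WT against 1106 ± 177 across Hdac2 cKO (SD, n = 3 per group), a log2 fold change of -0.030 (SE 0.25), or 0.145 without WT 3.

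The vesicular glutamate transporters load vesicles with glutamate, and most sensory neurons use the product of Slc17a6 (VGLUT2), while that of Slc17a7 (VGLUT1) is best known from large myelinated afferents. Slc17a6 (ENSMUSG00000030500, mm10 chromosome 7, 51622006 to 51671119) stood at 6714, 4818 and 4276 normalised counts across WT 1 to 3 against 7281, 7449 and 6956 across Hdac2 cKO 1 to 3, with means of 5269.5 ± 1279.9 across WT against 7229 ± 250.5 across Hdac2 cKO (SD, n = 3 per group). Every Hdac2 cKO library was above every WT library. Its log2 fold change was 0.48 (SE 0.22), with an interval from -0.037 to 1.00, the smallest p of the members (limma unadjusted p = 0.0642, adjusted p = 0.927). Without WT 3 it was 0.35. Slc17a7 (ENSMUSG00000070570, mm10 chromosome 7, 45163949 to 45176142) stood at 4794, 8143 and 2984 normalised counts across WT 1 to 3 against 4084, 3315 and 3538 across Hdac2 cKO 1 to 3. WT 1 and WT 2 lay above all Hdac2 cKO libraries and WT 3 below them. The log2 fold change was -0.43 (SE 0.36) in all libraries, -0.78 without WT 3 and -0.06 without WT 2, so most of it rests on WT 2.

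Neurexins are presynaptic adhesion proteins that line up with partners across the synaptic cleft. Nrxn2 stood at 4174, 6870.2 and 4491 normalised counts across WT 1 to 3 against 4990.1, 4327 and 4511 across Hdac2 cKO 1 to 3. WT 2 was the highest, the other libraries lay between 4174 and 4990, and the log2 fold change was -0.13 (SE 0.24). Nrxn3 stood at 1738, 1590.2 and 4989.8 normalised counts across WT 1 to 3 against 1655, 1660.0 and 5243 across Hdac2 cKO 1 to 3. Both libraries numbered 3 were more than 2-fold above all others, in either group, and the log2 fold change was 0.021 (SE 0.59). Without WT 3 it was 0.55 and without Hdac2 cKO 3 it was -0.53, so 1 library of either group sets its sign.

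The spread of most members was larger in WT, with or without the libraries numbered 3, though their share changed. The SD of log2 values was larger in WT than in Hdac2 cKO for 27 of 32 members (84.4%), against 75.1% of all genes tested. With WT 3 left out, WT 1 and WT 2 were set against all Hdac2 cKO libraries. The SD was then larger in WT for 20 of 32 members (62.5%), against 39.8% of all genes. With both libraries numbered 3 left out it was larger in WT for 30 of 32 (93.8%), against 64.7%. WT 3 lay over 2-fold from the mean of WT 1 and WT 2 for 10 members, above it for Vamp2, Syp and Nrxn3 and below it for Syt7, Doc2b, Syn1, Rims2, Cplx1, Bsn and Slc17a7. In Hdac2 cKO 3 the same was true of Nrxn3 alone, which lay above. Among WT, marker sums of WT 3 were the highest for pan-neuronal markers, at 402803 against 246026 and 310873 in WT 1 and 2, and for satellite glia markers, at 214760.0 against 121406 and 143545. Both sums were also above those of every Hdac2 cKO library. Peptidergic nociceptor and C-low-threshold mechanoreceptor sums were likewise highest in WT 3 among WT. Sums of non-peptidergic nociceptor, myelinating Schwann cell, skeletal muscle, macrophage, endothelial and mural, and erythroid markers were lowest there. Large-diameter neuron markers lay between. Single pan-neuronal and satellite glia markers went both ways. Among WT, Rbfox3, Uchl1 and Prph were highest in WT 3, Elavl3, Avil, Isl1 and Stmn2 lowest, and the other pan-neuronal ones between. Of the satellite glia markers, Fabp7 and Apoe (182369 in WT 3) were highest there and Glul lay between. Kcnj10 and Cdh19 were lowest, Kcnj10 at 316 against 2462 and 1983 in WT 1 and 2. The pan-neuronal and satellite glia sums thus rest on a few abundant genes. The part of these marker differences in the values of the members was not tested.

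**Figure D3:**
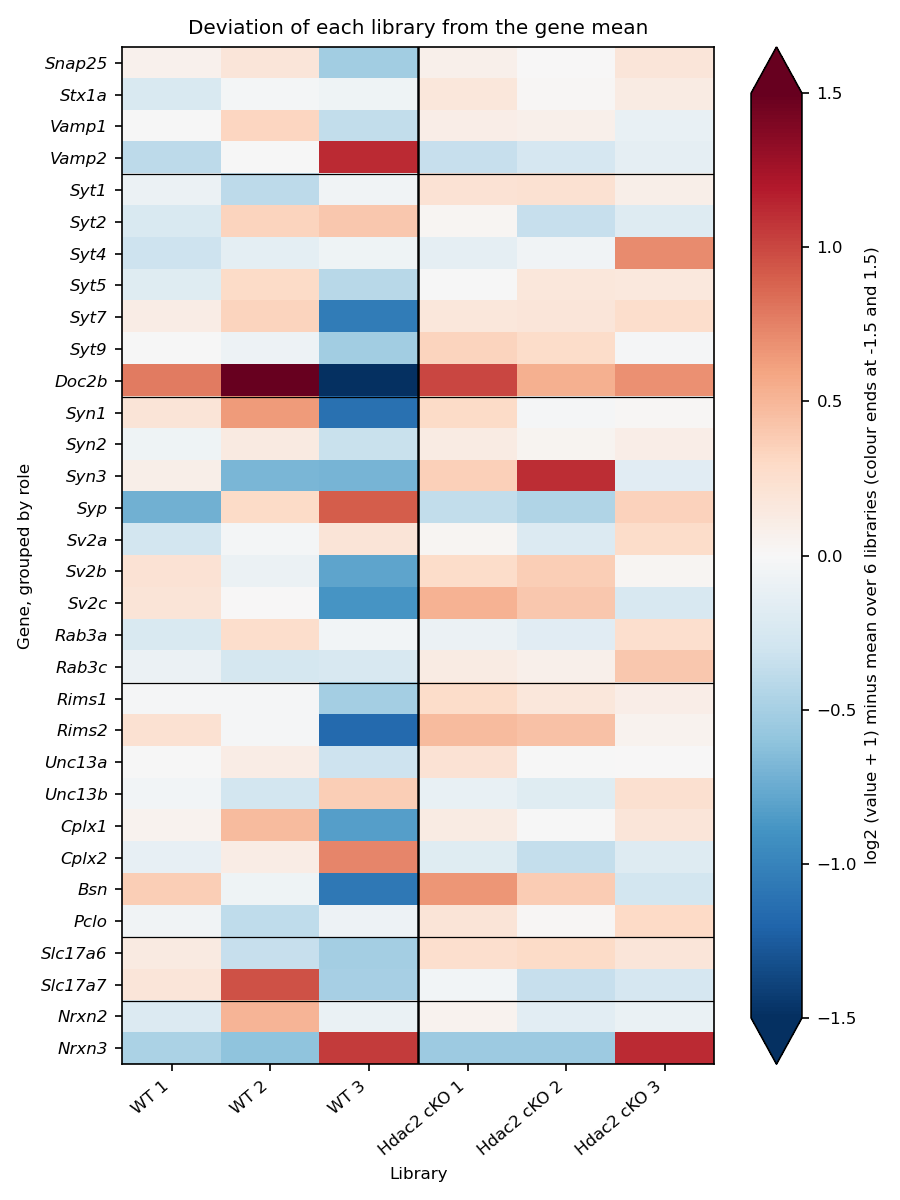
Colour gives log2 (value + 1) of each member (rows, grouped by role) in each library (columns) minus its mean over the 6 libraries; the vertical line parts WT from Hdac2 cKO. WT 3 holds most of the strong colours, red for Vamp2, Syp, Cplx2 and Nrxn3 and blue for Syt7, Syn1, Rims2 and Bsn, and Hdac2 cKO 3 shares the red of Nrxn3.

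Ratios between related genes within a library do not depend on how libraries are scaled, and were compared for 11 pairs per kilobase of exon. They can still depend on differences between libraries that vary with the gene, and the GC and gene length corrections were not run on them. Groups did not overlap for 3 pairs, each with exact two-sided permutation p = 0.1, the smallest that 3 against 3 allows, and adjusted p = 0.367 over the 11 pairs. The log2 ratio of Slc17a7 to Slc17a6 was -0.48, 0.76 and -0.52 across WT 1 to 3 against -0.83, -1.17 and -0.97 across Hdac2 cKO 1 to 3. It was lower in all Hdac2 cKO libraries, with a difference of -0.91 (SE 0.43) on the log2 scale, and of -0.49 without WT 2. As a geometric mean, Slc17a7 stood at 0.946 of Slc17a6 in WT, and at 0.503 in Hdac2 cKO.

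The log2 ratio of Syt2 to Syt1 was 0.30, 1.17 and 0.90 across WT 1 to 3 against 0.26, -0.13 and 0.15 across Hdac2 cKO 1 to 3. WT 1 and Hdac2 cKO 1 almost met, and the difference was -0.70 (SE 0.28), or -0.64 without WT 3. For Rab3c to Rab3a the log2 ratio was -2.38, -3.05 and -2.72 across WT 1 to 3 against -2.31, -2.27 and -2.36 across Hdac2 cKO 1 to 3, a difference of 0.40 (SE 0.20), or 0.23 without WT 2. In each of the pairs without overlap, the gene that was relatively higher in Hdac2 cKO had the lower GC content. It was 42.9% for Slc17a6 against 56.6% for Slc17a7, 45.8% for Syt1 against 51.6% for Syt2, and 41.9% for Rab3c against 55.0% for Rab3a. The other 8 pairs overlapped. In group means, the gene relatively higher in Hdac2 cKO also had the lower GC content in Vamp1/Vamp2, Syn3/Syn1, Sv2c/Sv2a and Sv2b/Sv2a. It had the higher GC content in Syn2/Syn1, Rims2/Rims1, Unc13b/Unc13a and Cplx2/Cplx1. The part of GC content in these ratios was not tested. For Cplx2 to Cplx1 and Vamp1 to Vamp2 WT 3 stood alone: the log2 ratio of Cplx2 to Cplx1 was -1.21 in WT 3 and between -3.14 and -2.94 in the other 5 libraries. That of Vamp1 to Vamp2 was -2.78 in WT 3 and between -1.26 and -0.84 elsewhere.

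**Figure D4:**
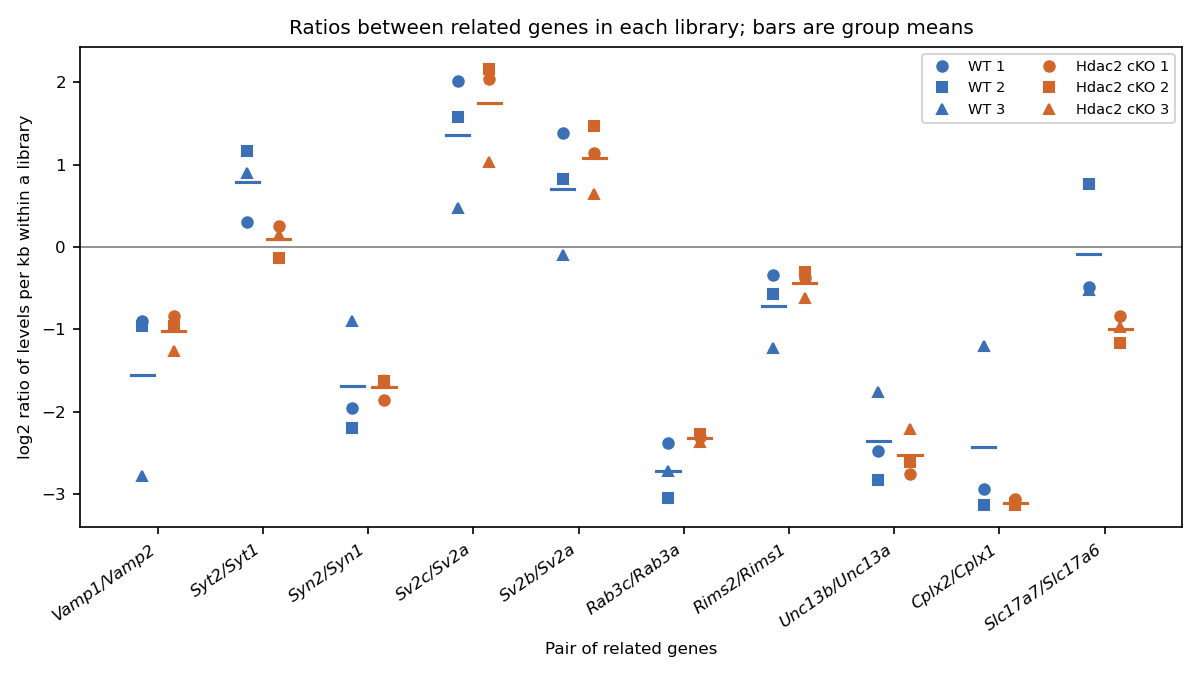
Log2 ratio per kilobase of exon between related genes within each library (vertical axis) for 10 of the 11 pairs (horizontal axis; Syn3/Syn1 lies far lower and is not drawn), with group means as bars. Slc17a7/Slc17a6 and Syt2/Syt1 are lower and Rab3c/Rab3a higher in all Hdac2 cKO libraries, while WT 3 (blue triangles) stands alone for Vamp1/Vamp2 and Cplx2/Cplx1.

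Weighting libraries by their precision changed 3 calls. With array weights limma called Slc17a6 higher (log2 fold change 0.55, adjusted p = 0.045), Syt1 higher (0.56, adjusted p = 0.0369) and Slc17a7 lower (-1.04, adjusted p = 0.029). That is 9.38% of the members, against 3.08% of all genes, of which 1.69% were called in the upward direction and 1.39% in the downward one. Among WT, the library with the fewest reads, WT 2, had a weight of 4.17, against 0.670 for WT 1 and 0.101 for WT 3, so the WT level in these calls is mainly that of WT 2. In WT 2 Slc17a7 was at its highest and Syt1 at its lowest of the 6 libraries. Large-diameter neuron markers, given beside these because Slc17a7 is known from such cells, summed to 173868 to 219160.0 in WT against 169209 to 252641 in Hdac2 cKO. Of these 8 markers, Runx3 and Calb2 were lower in every Hdac2 cKO library, Ntrk3 and Cntnap2 were higher and the other 4 overlapped. Their part in the transporter values was not tested.

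Further genes of the release pathway, 108 in 7 lists, were read the same way. Of these 99 were tested, 0 passed limma's test, 3 had an unadjusted p under 0.05 (3.03%, against 1.85%), 71 had log2 fold changes above 0 (71.7%, against 55.3% of all genes), and the median was 0.24, or 0.04 without WT 3. Groups did not overlap for 12 that were higher (12.1%, against 4.63% of all genes) and for 4 that were lower (4.04%, against 3.91%, so at the background). The 18 vesicle endocytosis genes had 16 values above 0 and a median of 0.27, but all overlapped and the median was 0.03 without WT 3. Other active zone and priming genes had a median of 0.29 (22 tested), other SNAREs and their partners 0.18 (21), other vesicle membrane genes 0.15 (21), other calcium sensors 0.05 (12) and other transmitter transporters -0.01 (4).

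Of the 8 with the smallest p among those without overlap, 7 are described. Rab3b, a further Rab3 GTPase, stood at 209, 229 and 313 normalised counts across WT 1 to 3 against 472, 527 and 369 across Hdac2 cKO 1 to 3, with a log2 fold change of 0.87 (SE 0.28). Its limma p was 0.0163 unadjusted and 0.927 adjusted. Like Rab3c it was higher in each Hdac2 cKO library, which Rab3a and Rab3d were not. The log2 fold change of Rab3d was 0.149 (SE 0.28), or -0.138 without WT 3. Higher values in each Hdac2 cKO library, given as log2 fold changes, were also found for Stxbp2 (0.55, SE 0.28), a Munc18 partner of syntaxins, for Rab27a (0.45, SE 0.24), a GTPase of secretory granules, for Scamp1 (0.31, SE 0.17), a vesicle carrier protein, and for Cadps2 (0.36, SE 0.21), which primes dense-core vesicles. Lower values were found for Baiap3 (-1.77, SE 0.65, or -1.17 without WT 3), a Munc13-related protein of dense-core vesicles. Its reads were few, at 62, 31 and 174 across WT 1 to 3 against 16, 21 and 44 across Hdac2 cKO 1 to 3. Vamp8 (-0.56, SE 0.24, or -0.43 without WT 3), a SNARE of endosomes and granules, was lower too. With array weights 5 of the 99 were called (5.05%, against 3.08% of all genes): Rab3b (adjusted p = 0.0137), Rab27a (0.0373), Vamp8 (0.0435), Lin7b (0.0395) and Unc13c (0.0489). Lin7b, a scaffold protein, and Unc13c, the Munc13-3 gene, overlapped between groups and are named because they were called.

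Marker levels of neurons and other cells are given beside these values. All 10 pan-neuronal markers were detected in every library and summed to 246026 to 402803 in WT against 255306 to 332767 in Hdac2 cKO, with 3 higher, 1 lower and 6 overlapping. The lower one was Avil, the gene that drives Cre. Skeletal muscle markers summed to 2123 to 8952 in WT against 164 to 1194 in Hdac2 cKO, lower without overlap for 7 of 8, and myelinating Schwann cell markers to 231211 to 345091 in WT against 126168 to 211398 in Hdac2 cKO, lower without overlap for 5 of 7. Satellite glia markers summed to 121406 to 214760.0 in WT against 99154 to 122746 in Hdac2 cKO and all 5 overlapped. Peptidergic nociceptor markers summed to 50142 to 83087 in WT against 55309.5 to 67715 in Hdac2 cKO, with 1 of 5 higher, and non-peptidergic ones to 32575 to 42762 in WT against 43951 to 51464 in Hdac2 cKO, with 2 of 5 higher. The part of these differences in the values of the release genes was not tested.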

How the data were processed

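Bulk RNA-seq of dorsal root ganglia gave 1 table of 6 libraries. Titles gave each sample's group and replicate number, and column names gave its column. Per the submitters' processing notes, the tools were HISAT2, SAMtools, featureCounts and DESeq2, with mm10 as the genome; versions, annotation and strand setting were not found in the sources used here. The deposited signal values were read counts per gene over a size factor per library, since whole reads came back for 100% of values (tolerance 0.01) when a column was divided by what 1 read is worth in it. GENCODE M21 gave symbols, coordinates and exon lengths for 54495 of 54532 identifiers.

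The test was limma 3.58.1 in R 4.3.3 on log2 of the value plus 1, with trend and robust options, over 18410 genes that reached 10 in 3 or more libraries. Such fold changes understate those of low genes. All tests were two-sided, with adjustment by Benjamini-Hochberg over all genes (threshold 0.05). Alternatives were edgeR 4.0.16 with TMM scaling and DESeq2 1.42.0, both on recovered reads (0 and 28 genes called), library totals, no filter, pseudocounts of 0.5 and 5, the replicate block, gene length and GC corrections, array weights, a sex term, and leaving out libraries. Code was tested on simulated data. No source used here says whether a library is 1 mouse or a pool, so p-values measure only the spread between these libraries, which may be technical. Deviations from the group means correlated by 0.40, 0.15 and 0.42 between libraries numbered 1, 2 and 3, so the numbers were taken to pair the libraries; this rests on the data, as no label says so. WT 1 and Hdac2 cKO 2 also correlated, by 0.34. No replicates agreed within sampling noise.

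The members and lists were chosen with earlier results of these data known. All members are named; values in every library were planned for members without overlap and the most abundant of each role, and those of other members were added after their values were seen. Of the further pathway genes, up to 8 without overlap with the smallest p were to be named; 1 of them is not reported here. Promoters are RefSeq windows of GRCm38.p6. Motifs were picked with the values known, and the RE1 right arm was shortened by 1 base after a longer form had been searched, which Unc13a held and Sv2b did not.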

Additional observations from a re-analysis of the deposited data

How the results depend on the processing

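Fold changes of 17 of 32 members kept 1 sign in all 20 alternatives, and in 19 of these alternatives no member passed. All genes past the threshold numbered 28 by DESeq2, 5 without both libraries numbered 3 and 567 with array weights, which also called 3 members. The members' median log2 fold change was -0.013 with array weights and 0.040 without both libraries numbered 3, and 0.08 to 0.30 when each library was left out in turn, where 0 genes and 0 members passed. Signs turned with array weights (-0.11 for Snap25, -0.19 for Vamp1, -0.11 for Syt5, -0.089 for Syt7, -0.58 for Doc2b, -0.44 for Syn1, -0.017 for Syn2, -0.032 for Sv2a, -0.0080 for Unc13a, 0.11 for Unc13b and -0.34 for Cplx1), without both libraries numbered 3 (-0.080 for Snap25, -0.071 for Vamp1, -0.044 for Syt7, -0.38 for Doc2b, -0.28 for Syn1, 0.018 for Unc13b, -0.21 for Cplx1 and -0.0044 for Nrxn3, and 0.33 for the Syn2/Syn1 ratio), with GC correction, with or without the replicate block (-0.0074 for Snap25, -0.052 for Vamp1, 0.075 for Rab3a, 0.21 for Nrxn2 and -0.064 for Nrxn3), with gene length correction, with or without the block (-0.12 for Vamp1, 0.089 for Rab3a, -0.046 for Unc13a and -0.17 for Nrxn3), with a sex term (0.013 for Rab3a and -0.00098 for Nrxn3) and by edgeR (-0.0014 for Vamp1). Leaving out single libraries gave ranges that cross 0 of -0.036 to 0.32 for Snap25, -0.14 to 0.21 for Vamp1, -0.015 to 0.67 for Syt7, -0.41 to 2.62 for Doc2b, -0.32 to 0.56 for Syn1, -0.76 to 0.056 for Syp, -0.052 to 0.19 for Sv2a, -0.13 to 0.13 for Rab3a, -0.18 to 0.15 for Unc13b, -0.17 to 0.48 for Cplx1, -0.27 to 0.088 for Nrxn2 and -0.53 to 0.55 for Nrxn3, and for ratios of -0.089 to 0.85 for Vamp1/Vamp2, -0.27 to 0.38 for Syn2/Syn1, -0.054 to 0.74 for Sv2c/Sv2a, -0.020 to 0.72 for Sv2b/Sv2a and -0.41 to 0.12 for Unc13b/Unc13a. The cause was not tested. The replicate block, which pairs libraries by number, changed no call (0 genes, 0 members, median 0.20). Pseudocounts, scaling by library totals and the missing filter turned no sign. Depth limits Doc2b and Syn3, with at most 52 and 202 reads; the other members had at least 614 reads in each library.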

Other observations

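A few release genes outside the members stood apart in WT 3; they were picked after their values were seen and are given as values only. Syt11, a synaptotagmin that does not bind calcium, stood at 35876, 34637 and 115330.0 normalised counts across WT 1 to 3 against 37079, 36965 and 65401 across Hdac2 cKO 1 to 3. Bin1, an amphiphysin family member of the endocytic pathway, stood at 3919, 5243 and 13527 normalised counts across WT 1 to 3 against 4330.4, 3832 and 6123 across Hdac2 cKO 1 to 3. Slc18a3, which encodes the vesicular acetylcholine transporter of cholinergic neurons, stood at 1.76, 0 and 122 normalised counts across WT 1 to 3 against 0, 0 and 1.40 across Hdac2 cKO 1 to 3 and was not tested because it failed the filter on low values. Doc2g, the close relative of Doc2b, stood at 11.5, 16.4 and 227 normalised counts across WT 1 to 3 against 6.06, 20.6 and 166 across Hdac2 cKO 1 to 3, so that both libraries numbered 3 were high in this gene while Doc2b was at 0 in WT 3 only.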
